A study of Mus musculus with 34 samples.

Results

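Transcripts of 10 immediate early and dissociation stress genes (Fos, Fosb, Jun, Junb, Egr1, Atf3, Ier2, Nr4a1, Dusp1 and Zfp36) were followed across every cell preparation of a mouse cardiac reprogramming series. The genes were taken by the gene name printed beside each probe in the scanner files, and all 10 were found and tested among 19408 genes. RNA of 34 samples, a pair for every one of the 17 groups, was hybridised to Agilent arrays in a single colour. The cells came from CD1 mice of the aMHC-GFP genotype, in which a cardiac alpha myosin heavy chain promoter drives the green fluorescent reporter, so every group shares that transgene. Fresh cardiac fibroblasts (neoCF) and fresh cardiomyocytes (neoCM) were isolated from hearts of pups at postnatal day 1.5. Cultured fibroblasts (CF_D0) were the starting cells on day 0. They were then given either a retrovirus carrying Mef2c, Gata4 and Tbx5 on a single polycistronic transcript (MGT) or a LacZ control, and both arms were sampled on days 3, 5, 7, 10 and 14. Induced cardiomyocyte-like cells (iCM) were taken 4 weeks after the same 3 factors. Cardiomyocytes from a pair of induced pluripotent lines, made from cardiac fibroblasts with Oct4, Sox2, Klf4 and cMyc, were taken on day 13 of differentiation (iPSC1CM_D13) and on days 9 and 29 (iPSC2CM_D9 and iPSC2CM_D29). StemPro34 medium with VEGF, bFGF and FGF10 was used for iCM and for the cells made from iPSC. The labels do not state whether cells were sorted or whether the 2 arrays of a group came from separate cultures, so p-values measure only the spread between these arrays, which may be technical.

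Immediate early genes are transcribed within minutes of a stimulus such as serum, growth factors, stretch or enzymatic digestion of a tissue, without new protein synthesis, and their short-lived mRNAs usually fade soon afterwards. Fos and Fosb pair with Jun and Junb to form the AP-1 transcription factors, Egr1 is a zinc finger factor and Nr4a1 an orphan nuclear receptor. Atf3 is a stress-induced factor of the ATF/CREB family and Ier2 a small nuclear protein. Dusp1, a phosphatase that switches off MAP kinases, and Zfp36 (tristetraprolin), which binds AU-rich elements and speeds the decay of cytokine mRNAs, are feedback members of the same response. Releasing heart cells with enzymes is a well-known trigger of these genes, which is why they are followed as dissociation stress genes in fresh preparations.

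Many immediate early promoters carry elements bound by CREB or ATF factors, whose core is TGACG, and serum response elements with a CArG box. The 250 bases upstream of the start of 6 members are shown, Fos, Fosb, Nr4a1, Dusp1 and Atf3, which hold matches to that core, and Jun, which holds none, from the RefSeq promoter table (GRCm38.p6), 5′ to 3′ on the strand of the gene. Capitals mark TGACG, read as CGTCA where it lies on the other strand. The Fos window lies at chr12:85473640-85473889 on the plus strand, that of Fosb at chr7:19310046-19310295 on the minus strand and that of Nr4a1 at chr15:101266596-101266845 on the plus strand. The Dusp1 window is chr17:26508473-26508722, that of Atf3 chr1:191183334-191183583 and that of Jun chr4:95052223-95052472, each on the minus strand.
Fos: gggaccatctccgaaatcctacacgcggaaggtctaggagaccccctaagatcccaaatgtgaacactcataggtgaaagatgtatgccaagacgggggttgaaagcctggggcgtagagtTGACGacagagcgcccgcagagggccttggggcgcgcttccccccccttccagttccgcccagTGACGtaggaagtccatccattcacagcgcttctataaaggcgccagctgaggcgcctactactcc
Fosb: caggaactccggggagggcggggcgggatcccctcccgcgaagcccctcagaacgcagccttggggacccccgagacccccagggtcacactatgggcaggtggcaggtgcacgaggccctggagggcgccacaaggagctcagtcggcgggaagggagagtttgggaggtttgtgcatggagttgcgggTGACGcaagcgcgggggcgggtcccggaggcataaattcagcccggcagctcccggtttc
Nr4a1: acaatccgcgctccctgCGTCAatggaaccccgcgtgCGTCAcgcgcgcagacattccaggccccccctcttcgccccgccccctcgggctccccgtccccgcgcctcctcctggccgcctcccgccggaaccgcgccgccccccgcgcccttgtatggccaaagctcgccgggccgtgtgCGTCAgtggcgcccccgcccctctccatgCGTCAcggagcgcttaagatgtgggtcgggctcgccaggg
Dusp1: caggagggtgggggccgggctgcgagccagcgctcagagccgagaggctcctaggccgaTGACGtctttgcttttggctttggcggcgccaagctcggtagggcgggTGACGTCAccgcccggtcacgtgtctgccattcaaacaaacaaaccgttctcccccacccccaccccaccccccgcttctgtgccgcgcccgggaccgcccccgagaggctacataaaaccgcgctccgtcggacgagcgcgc
Atf3: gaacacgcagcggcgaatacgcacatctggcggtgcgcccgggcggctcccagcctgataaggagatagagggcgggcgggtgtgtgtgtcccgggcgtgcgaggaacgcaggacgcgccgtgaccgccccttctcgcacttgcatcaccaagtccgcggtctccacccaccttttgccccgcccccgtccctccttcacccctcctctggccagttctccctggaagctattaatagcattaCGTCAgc
Jun: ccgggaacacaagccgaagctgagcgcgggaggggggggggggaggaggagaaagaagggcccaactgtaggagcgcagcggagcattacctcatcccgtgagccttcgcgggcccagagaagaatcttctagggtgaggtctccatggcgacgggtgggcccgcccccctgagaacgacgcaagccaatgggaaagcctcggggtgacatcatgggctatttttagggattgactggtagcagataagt
Of the 10 members, 8 were in the promoter table; Egr1 and Ier2 were not. TGACG on either strand was present in 6 of those 8 windows (75%), against 17.8% of all 32851 windows of that length, with 4 matches for Nr4a1, 3 for Dusp1 and 2 for Fos. Atf3, Fosb and Junb each had 1 match, and Jun and Zfp36 had 0. The full palindrome TGACGTCA, in which TGACG is found on both strands, was present for Dusp1 alone (1.55% of all windows). GCGNGGGCG, the EGR motif, was present for Fosb, Zfp36 and Nr4a1 (4.7% of all windows), and a CArG box for Zfp36 alone (1.47%). TATAAA was present for Fos alone (12.4%), and neither the AP-1 motif TGANTCA (6.75%) nor the NR4A motif AAAGGTCA (1.34%) was found in any of the 8. These matches describe the letters in these windows and nothing more.

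Each member was measured by 1 probe, printed in 10 spots for Fos and in 1 spot for the others. By the array's own mm9 annotation the probes lie at chr12:86817900-86817959 (Fos), chr7:19888168-19888227 (Fosb), chr4:94716928-94716987 (Jun), chr8:87501881-87501940 (Junb), chr1:192994547-192994606 (Atf3), chr8:87186214-87186273 (Ier2), chr15:101105071-101105130 (Nr4a1) and chr7:29161940-29161999 (Zfp36). The file lists only 11 bases for Dusp1, chr17:26642526-26642536. A level is the log2 of the array's processed signal minus the array's 75th percentile, so 0 is the 75th percentile of that array, and a difference of 1 is 2-fold. Levels are compared for the same gene across groups, since probes differ in how brightly they report. Every member was well above background on all 34 arrays. A gene was called where limma's adjusted p was under 0.05 and the difference was at least 2-fold, with a single estimate of spread for each gene over all 17 groups.

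The arrays had between 28715 and 44881 of 59305 spots well above background. The replicates of iPSC2CM_D29 stood apart from each other. Their correlation over genes was 0.895, against 0.984 to 0.997 in the other groups, and 8214 genes differed by at least 2-fold between them. Because every gene's spread is shared, that pair widened the errors of several members in all comparisons. The standard error of a difference in Atf3 was 0.87 with the pair and 0.22 without it, that of Fosb 0.81 and 0.19, that of Egr1 0.73 and 0.17, and that of Nr4a1 0.54 and 0.11. For Dusp1 it was 0.13 and 0.11 and for Zfp36 0.19 and 0.18. Counts are therefore given for all 17 groups and, next to them, for the fit without iPSC2CM_D29, an alternative chosen after the data were seen. Groups also lay on different slides: neoCF, CF_D0 and LacZ_D14 shared a slide, and each MGT day up to day 10 shared a slide with LacZ of that day. The neoCM arrays lay on other slides than neoCF and CF_D0, as did MGT_D14 relative to LacZ_D14, so there slide and group cannot be told apart.

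Judged by their median, the 10 genes were higher in both fresh heart preparations than in any cultured one. The median level of the 10 members was 4.39 and 5.00 on the neoCF arrays and 4.82 and 4.80 on the neoCM arrays. It was 1.34 and 1.23 in CF_D0, and between -0.53 and 2.15 on the remaining arrays, the highest of them iPSC2CM_D29 replicate 2. By group mean, neoCF was highest for 9 of 10 members and neoCM for Fosb. Fosb spanned 8.55 log2 units over the 17 group means, Fos 7.80 and Egr1 7.14, whereas Zfp36 spanned 4.14 and Dusp1 4.17. With groups put in order of their mean, and iPSC2CM_D29 left out, most neighbours did not differ beyond their spread: of 15 neighbouring pairs, 7 did so for Egr1, 5 each for Nr4a1 and Dusp1, 4 for Fos, 3 each for Fosb, Junb and Atf3, 2 each for Ier2 and Zfp36 and 1 for Jun.

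**Figure D1:**
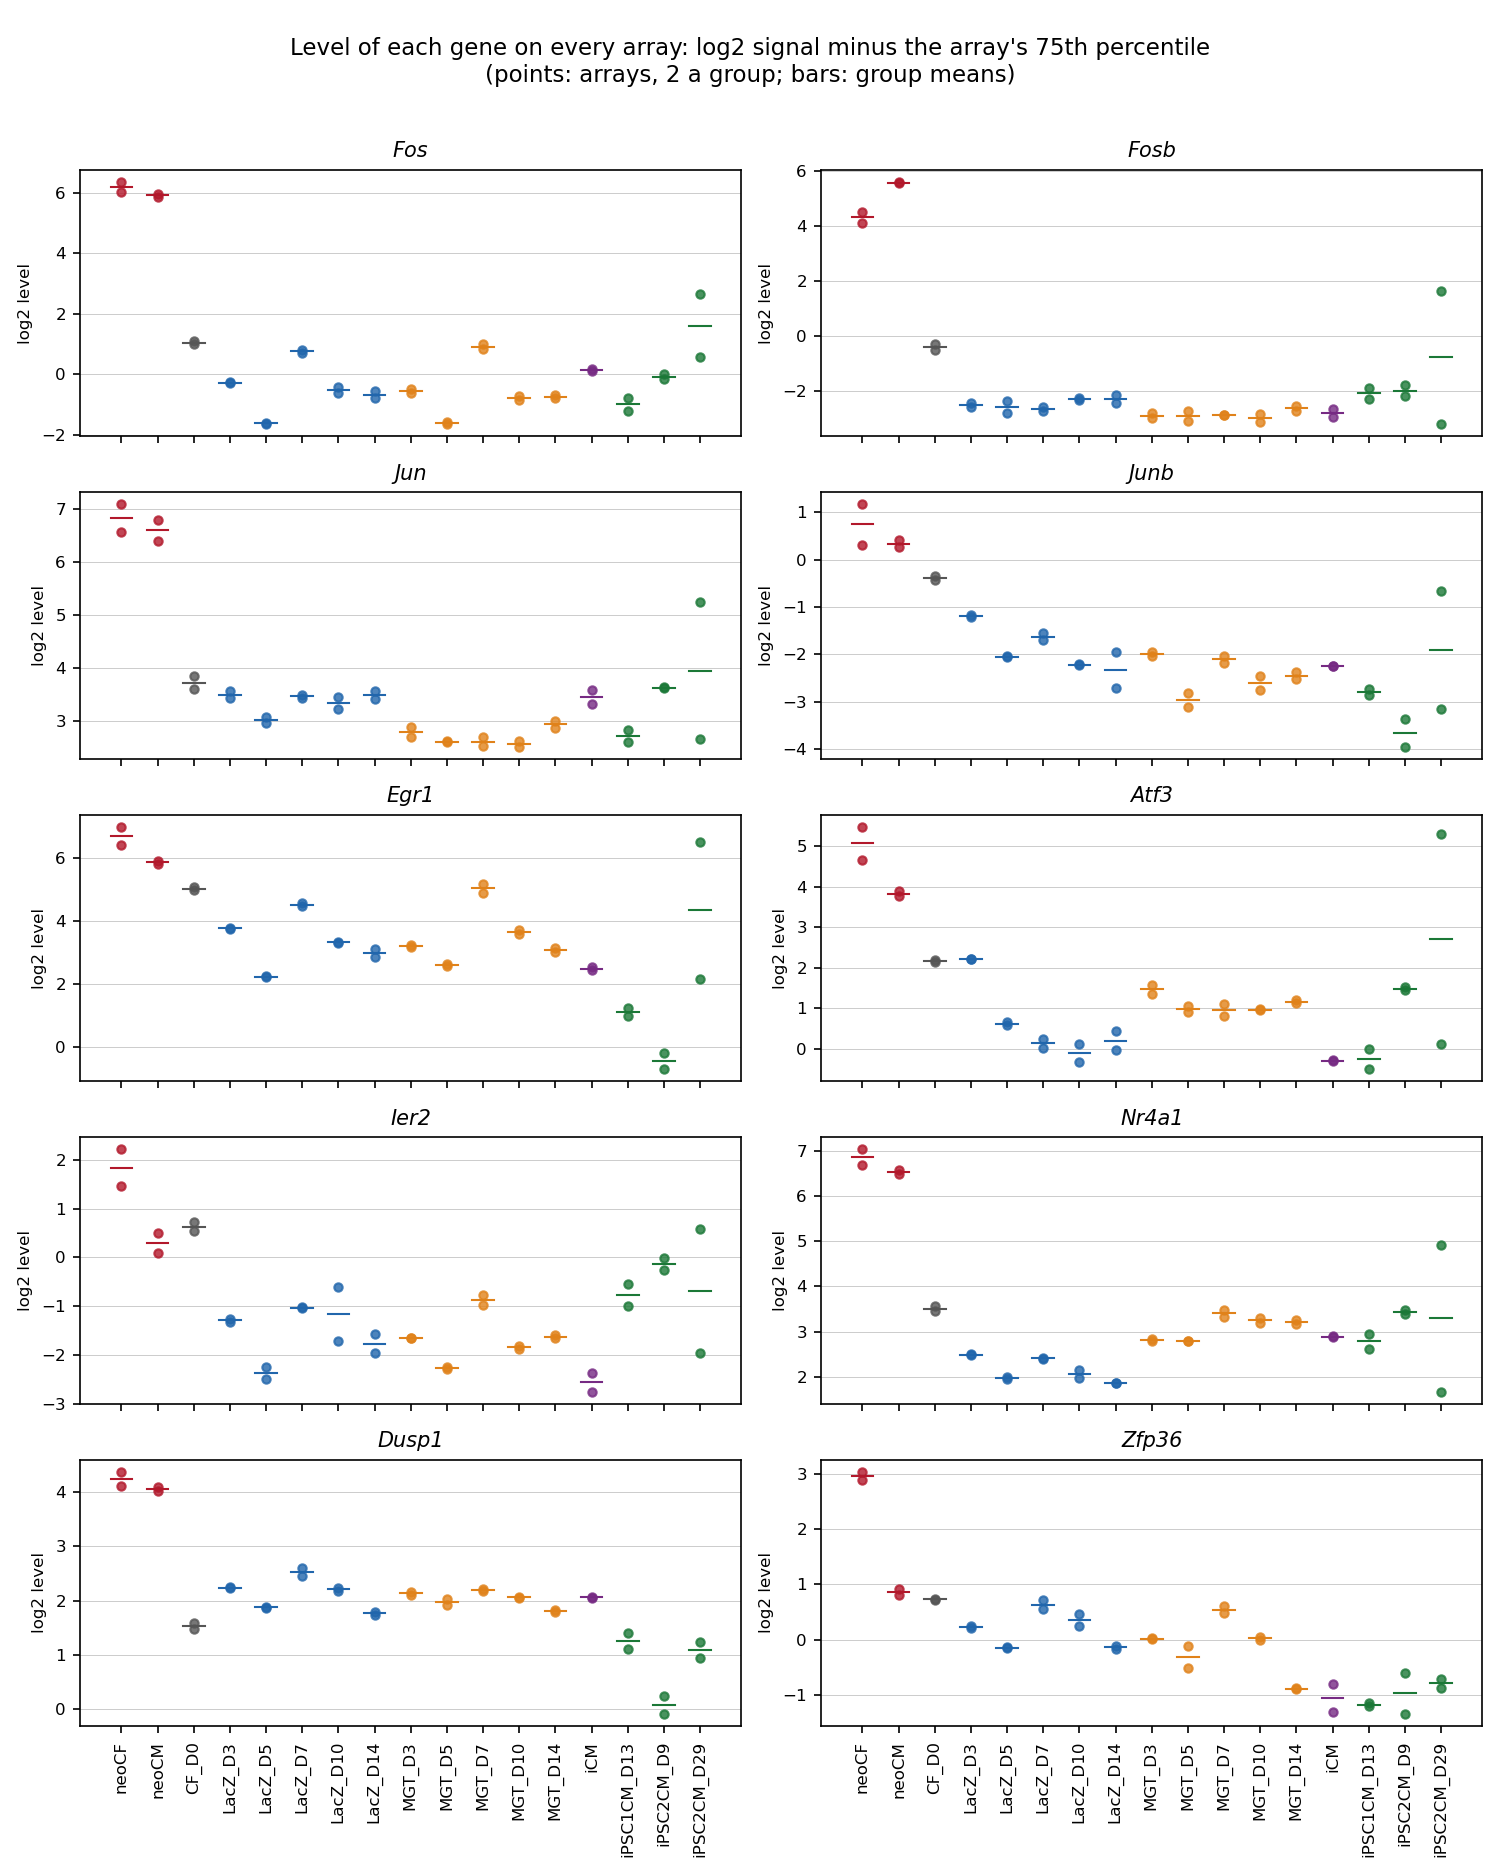
Level of each member on every array, as log2 signal relative to the array's 75th percentile, with 1 panel for each gene and the 17 groups along the axis. Points are the 2 arrays of a group and the short line is their mean. The fresh neoCF and neoCM arrays lie above the cultured groups for Fos, Fosb, Jun, Junb, Nr4a1, Dusp1 and, narrowly, Zfp36 (0.81 in neoCM against 0.73 in CF_D0). The iPSC2CM_D29 points are far apart for Atf3, Fosb and Egr1.

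The comparison of CF_D0 with neoCF sets cultured fibroblasts against fibroblasts straight from the heart, on a shared slide. Of the 10 members 9 fell, against 17.4% of all genes tested that were called lower; without iPSC2CM_D29 all 10 fell, against 18.8%. The median change was -2.81 over the members and 0.11 over all genes.

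Fos was at 6.02 and 6.35 in neoCF and at 1.10 and 0.99 in CF_D0. The 2 groups were far apart, and Fos fell by 5.14 ± 0.36 (SE, n = 2 arrays a group), which is 35.4-fold (limma, adjusted p = 5.4e-10). Its relative Fosb was at 4.10 and 4.51 in neoCF and -0.53 and -0.29 in CF_D0, a fall of 26.3-fold (limma, adjusted p = 6e-05). Jun, the commonest partner of Fos in AP-1, went from 6.56 and 7.08 to 3.60 and 3.85, an 8.58-fold fall. Junb, a Jun relative that is the weaker activator of the pair, was at 0.32 and 1.17 in neoCF and at -0.42 and -0.35 in CF_D0. The neoCF arrays differed from each other here by more than the lower of them differed from CF_D0. The 2.19-fold fall in Junb was just called (limma, adjusted p = 0.047).

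The orphan receptor Nr4a1 stood at 6.70 and 7.04 in neoCF and 3.56 and 3.46 in CF_D0, a 10.3-fold fall (limma, adjusted p = 3e-05). Atf3 was at 4.67 and 5.48 against 2.20 and 2.14, a fall of 7.48-fold (limma, adjusted p = 0.0081). Dusp1, the MAP kinase phosphatase, was at 4.11 and 4.37 against 1.59 and 1.47, and fell 6.57-fold with the smallest error of the set (limma, adjusted p = 1.7e-12). Zfp36 was at 2.88 and 3.04 against 0.73 and 0.73, a 4.69-fold fall. For each of these 4 genes both neoCF arrays lay at least 2 log2 units above both CF_D0 arrays.

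Egr1 was lower in CF_D0 as well, by 3.2-fold. It was at 6.43 and 7.00 in neoCF and at 5.08 and 4.99 in CF_D0. This difference of -1.68 was not called in the fit of all 17 groups (limma, adjusted p = 0.058) and was called without iPSC2CM_D29 (limma, adjusted p = 4.8e-08). Ier2 was at 1.47 and 2.21 against 0.53 and 0.73, a 2.31-fold fall (limma, adjusted p = 0.045).

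On the neoCF arrays replicate 2 was above replicate 1 for all 10 members, by up to 0.85. Without neoCF replicate 2, Atf3 (-2.49, limma adjusted p = 0.067), Ier2 (-0.84, 0.28) and Junb (-0.70, 0.33) were no longer called. Leaving out CF_D0 replicate 1 also lost Ier2 (-1.11, 0.16) and Junb (-1.09, 0.14), as did leaving out CF_D0 replicate 2 (-1.31, 0.093 and -1.17, 0.11). The members called lower then numbered between 6 and 9. Other cells moved with this comparison too. The signals of 6 neutrophil markers were added and taken as log2, as in every marker sum here, so the brightest weigh most. The sum was 6.7 and 6.1 in neoCF and 3.6 and 3.2 in CF_D0, with 6 and 4 of 6 well above background. Of these 6 markers 5 fell and 1 rose. For 8 macrophage markers the sum was 6.7 and 6.2 against 4.9 and 4.8, all 8 well above background on each of the 4 arrays. Of these 8 markers 5 fell and 2 rose. The 6 cardiomyocyte markers summed to 6.6 and 6.1 against 3.5 and 3.4, and the 7 fibroblast markers to 9.9 and 9.9 against 9.6 and 9.6. Of 6 endothelial markers 4 fell, with sums of 5.8 and 5.9 against 3.5 and 3.6, and of 4 erythroid markers 3 fell and 1 rose, with sums of 7.1 and 6.9 against 0.67 and -0.04. The part of these other cells in the falls was not tested, and in bulk RNA fewer cells of a type and less RNA in each cannot be told apart.

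**Figure D2:**
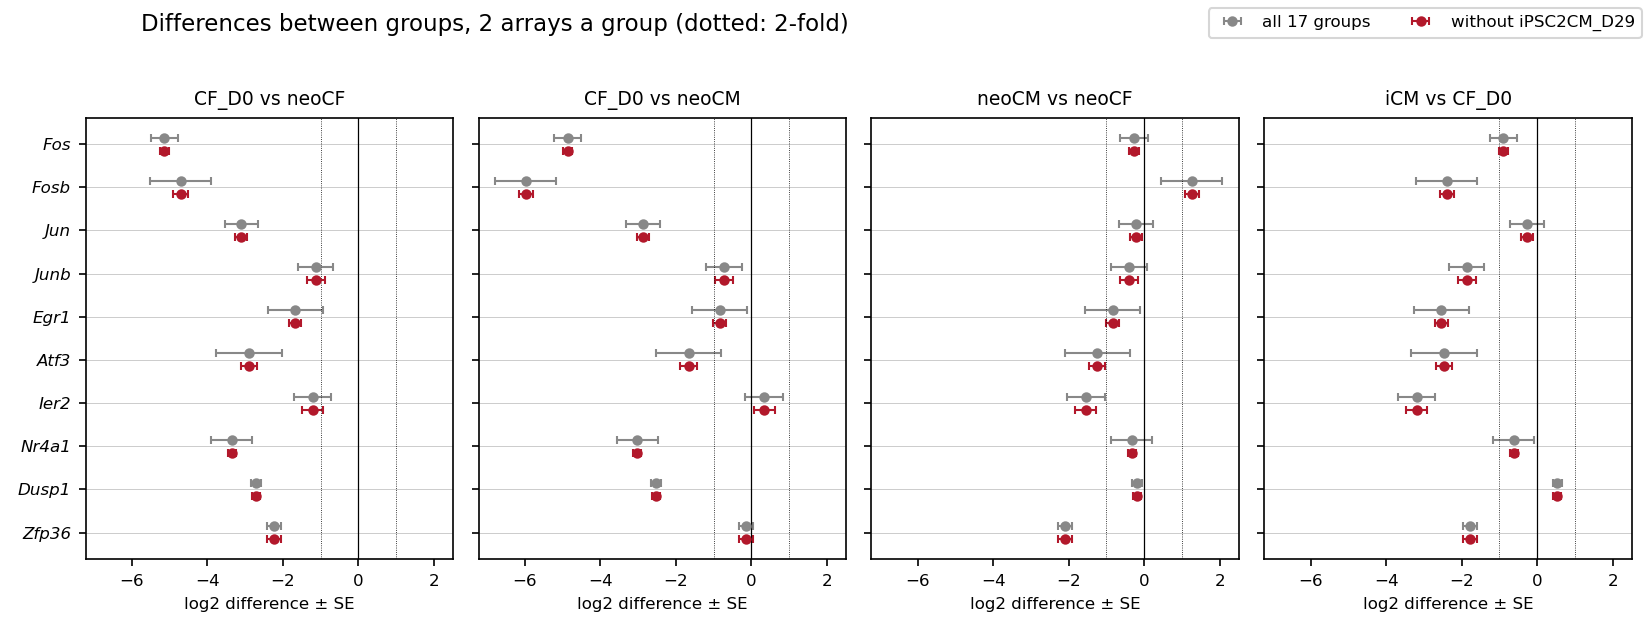
Difference of each member in log2 units, with bars of 1 standard error (2 arrays a group), for CF_D0 against neoCF, CF_D0 against neoCM, neoCM against neoCF and iCM against CF_D0. Grey points are from the fit of all 17 groups and red points from the fit without iPSC2CM_D29; dotted lines mark 2-fold. All 10 members lie left of 0 for CF_D0 against neoCF, whereas Fosb lies right of 0 and Zfp36 left of it for neoCM against neoCF.

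Genes around the members did not all fall with them in CF_D0. Over all 19408 genes tested 3393 rose and 3373 fell. Of 9 AP-1 partners 3 rose and 1 fell. Fosl1, a Fos relative known from growing and migrating cells, rose by 6.75 ± 0.44 and Fosl2 by 1.31 ± 0.27, while Jund fell by 1.70 ± 0.45. Of 7 EGR and NR4A relatives 4 fell and 0 rose. Among 33 other early response genes 5 rose and 8 fell, with a median of -0.04. Ccn2, a matricellular protein gene driven by YAP and serum response factor, rose by 2.94 ± 0.33, whereas Rgs2, a regulator of G protein signalling, fell by 3.85 ± 0.23 and the difference of Klf2 was -2.71 ± 0.38. Among 11 genes of the tristetraprolin family and its target cytokines 7 rose and 1 fell, with Csf2 up by 6.19 ± 0.40, while Zfp36 itself fell. Of 11 heat shock genes 2 rose and 4 fell, and the inducible chaperone Hspa1a fell by 5.22 ± 1.22. Of 9 ATF4 stress response genes 4 rose and 2 fell; asparagine synthetase, Asns, rose by 3.73 ± 0.28, and Ppp1r15a, the eIF2α phosphatase subunit, fell by 1.18. These lists were written with earlier results of these data known.

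Fresh cardiomyocytes differed from fresh fibroblasts by under 0.5 log2 units for 5 of the 10 members. Of the 10, 2 were called, both lower in neoCM, against 31.6% of all genes called in either direction (16.2% lower). Zfp36 was at 0.81 and 0.91 in neoCM and 2.88 and 3.04 in neoCF, 4.28-fold lower in neoCM (limma, adjusted p = 2.3e-08). Ier2 was at 0.10 and 0.49 against 1.47 and 2.21, 2.92-fold lower (limma, adjusted p = 0.013). Its call was lost without neoCF replicate 2 (-1.17, adjusted p = 0.13) and without neoCM replicate 1 (-1.35, adjusted p = 0.089), so the count ranged from 1 to 2.

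Fosb ran the other way. It was at 5.54 and 5.59 in neoCM and 4.10 and 4.51 in neoCF, with no overlap. The difference of 1.26 was not called in the fit of all groups (limma, adjusted p = 0.21) and was called without iPSC2CM_D29 (limma, adjusted p = 1.2e-05), as was the lower Atf3, at 3.78 and 3.89 against 4.67 and 5.48 (-1.24, limma, adjusted p = 6e-05). That fit called 4 members, 3 of them lower, against 34.1% of all genes (17.8% lower). The differences of Fos (-0.28), Jun (-0.23), Dusp1 (-0.19), Nr4a1 (-0.33) and Junb (-0.41) were below 0.5 log2 units and uncalled in either fit. Egr1, at 5.92 and 5.83 in neoCM and 6.43 and 7.00 in neoCF, did not overlap between the groups and differed by -0.84, under 2-fold and so uncalled in either fit (limma, adjusted p = 0.36, and 0.00025 without iPSC2CM_D29).

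The lists around the members are given next, without a test of how they differ from the members, whose median difference was -0.37. Over all 19408 genes tested 3144 were lower in neoCM and 2996 higher. Of 33 other early response genes 23 were lower in neoCM and 0 higher, with a median of -1.44 against -0.05 over all genes, among them the NF-κB inhibitor Tnfaip3 (-3.98 ± 0.17) and the kinase Sgk1 (-3.39 ± 0.19). Of 11 genes of the tristetraprolin family and its targets 10 were lower and 0 higher, with Cxcl2 (-6.00 ± 0.35) and Tnf (-5.50 ± 0.31) in front. Of 9 AP-1 partners 6 were lower and 0 higher. Of 11 heat shock genes 5 were lower and 0 higher (median -0.42), including Hspa1a (-3.88) and Hsph1 (-3.10), and of 11 ternary complex and CREB genes 3 were lower and 0 higher (median -0.54). Nr4a2, the close relative of Nr4a1, was the exception among 7 EGR and NR4A relatives, 1.11 ± 0.21 higher in neoCM while 4 were lower. The log2 of the added signals of the 8 macrophage markers was 6.7 and 6.2 in neoCF and 2.2 and 2.1 in neoCM. For the 6 neutrophil markers it was 6.7 and 6.1 against 4.5 and 4.2. Their part in these differences was not tested, and slide and group cannot be told apart.

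CF_D0 against neoCM had 5 members lower, against 21.7% of all genes, and 6 without iPSC2CM_D29, against 22.7%. Fosb differed by -5.98 and Fos by -4.87, and Jun, Nr4a1 and Dusp1 were lower by between 2.52 and 3.03 log2 units. This comparison shares CF_D0 with the one above.

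From day 0 to day 14 of the LacZ control culture the remaining early gene signal fell further for some members. On day 3, 2 of 10 were lower than in CF_D0 (6.29% of all genes), namely Fos, at -0.29 and -0.24 against 1.10 and 0.99 (-1.31, limma, adjusted p = 0.0089), and Ier2, at -1.25 and -1.32 against 0.53 and 0.73 (-1.92, limma, adjusted p = 0.0054). Without iPSC2CM_D29, 5 were lower (7.57%), with Fosb (-2.10), Egr1 (-1.25) and Nr4a1 (-1.02) added. No slide held both LacZ_D3 and CF_D0, so the slide cannot be told apart from the day here. The call of Fos was lost without CF_D0 replicate 1 (-1.26, adjusted p = 0.056) or LacZ_D3 replicate 1 (-1.29, adjusted p = 0.053), leaving 1. Dusp1 was at 2.23 and 2.25 on day 3 and at 1.59 and 1.47 on day 0, the only member above CF_D0 with an adjusted p under 0.05 (0.71, limma, adjusted p = 0.00022), under 2-fold.

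By day 14, 5 members were lower than in CF_D0, on the same slide, against 12.8% of all genes. Egr1 had fallen from 5.08 and 4.99 to 2.87 and 3.13 (-2.04, limma, adjusted p = 0.027), and Ier2 from 0.53 and 0.73 to -1.58 and -1.97 (-2.41, limma, adjusted p = 0.00048). Junb was at -1.94 and -2.71 (-1.94), Fos at -0.56 and -0.77 (-1.71) and Nr4a1 at 1.86 and 1.87 (-1.65, limma, adjusted p = 0.017). Without any single array of CF_D0 or LacZ_D14 the calls of Egr1 and Nr4a1 were lost, with adjusted p between 0.058 and 0.099, which left 3. Without iPSC2CM_D29 there were 7 lower, against 14%, with Atf3 (-1.97) and Fosb (-1.87) added. Jun, at 3.56 and 3.42 against 3.60 and 3.85, and Dusp1, at 1.74 and 1.78 against 1.59 and 1.47, differed from day 0 by -0.23 and 0.24 and were not called. Among 33 other early response genes 13 fell and 3 rose from day 0 to day 14, and of the AP-1 partners 3 of 9 fell, Fosl1 by 5.46. Over all 19408 genes tested 2487 fell and 2906 rose. Markers of other cells moved over these days as well. Of 8 macrophage markers 6 rose, with sums of 4.9 and 4.8 on day 0 and 7.8 and 8.3 on day 14, and of 6 neutrophil markers 4 fell, from 3.6 and 3.2 to -0.42 and -0.48. Of 6 endothelial markers 4 fell and 1 rose, and of 6 cardiomyocyte markers 4 fell and 1 rose. The part of these cells in the differences of the members was not tested.

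The course within the culture was not steady. Fos and Egr1 were at their lowest on day 5, were high again on day 7 and lower on day 10, in the LacZ arm and in the MGT arm alike. In LacZ cells Fos was at -0.29 and -0.24 on day 3, -1.63 and -1.59 on day 5, 0.81 and 0.72 on day 7 and -0.60 and -0.40 on day 10. In MGT cells it was at -0.47 and -0.62, then -1.56 and -1.64, then 0.99 and 0.83, then -0.86 and -0.72. Arrays of a day lay close together, and no day overlapped with the next in either arm.

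Egr1 followed the same path. It stood at 3.77 and 3.80, 2.22 and 2.28, 4.57 and 4.50, and 3.36 and 3.32 on the 4 days of the LacZ arm, and at 3.19 and 3.25, 2.57 and 2.66, 5.20 and 4.91, and 3.74 and 3.59 in the MGT arm. Ier2 was at -2.25 and -2.50 on day 5 and -1.03 and -1.04 on day 7 of the LacZ arm, and at -2.30 and -2.25 and then -0.78 and -0.98 in the MGT arm. Junb, Dusp1 and Zfp36 were also higher on day 7 than on day 5 in both arms, by less than 2-fold. In contrast Jun moved little, between 2.95 and 3.56 on the 10 LacZ arrays and between 2.52 and 3.01 on the 10 MGT arrays.

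From day 5 to day 7 Fos rose by 2.37 ± 0.36 in LacZ cells (limma, adjusted p = 0.00051) and by 2.51 ± 0.36 in MGT cells (limma, adjusted p = 4e-04). It was the only member called in the fit of all groups, where 1.36% and 0.927% of all genes rose. Without iPSC2CM_D29, Egr1 (2.29 in LacZ cells, 2.44 in MGT cells) and Ier2 (1.34 and 1.39) were called as well, against 2.82% and 2.36%. Without MGT_D5 replicate 2 the count in MGT cells was 2. Days 3 and 5 shared a slide and days 7 and 10 shared another, so for the day 5 to day 7 step slide and day cannot be told apart. The steps within a slide do not have that limit. From day 3 to day 5 of the LacZ arm Fos fell by 1.34 in the fit of all groups (2.33% of all genes lower), a call lost without any single array of either day (adjusted p 0.14 to 0.18), and without iPSC2CM_D29 Atf3 (-1.60), Egr1 (-1.54) and Ier2 (-1.09) were called too (4.29%). In the MGT arm limma called 0 members for that step (2 at an unadjusted p under 0.05; Fos -1.06, adjusted p = 0.11; 2.04% of all genes lower), and Fos alone without iPSC2CM_D29 (3.9%). From day 7 to day 10 limma called 0 members in either arm in the fit of all groups (2 in each at an unadjusted p under 0.05, with 0.139% and 0.0567% of all genes lower). Without iPSC2CM_D29 it called Egr1 (-1.20 in LacZ cells, -1.39 in MGT cells) and Fos (-1.26 and -1.70), against 0.608% and 0.232% of all genes, and the within-slide fit also called 2 members in each arm. These step comparisons were added after the data were seen.

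**Figure D3:**
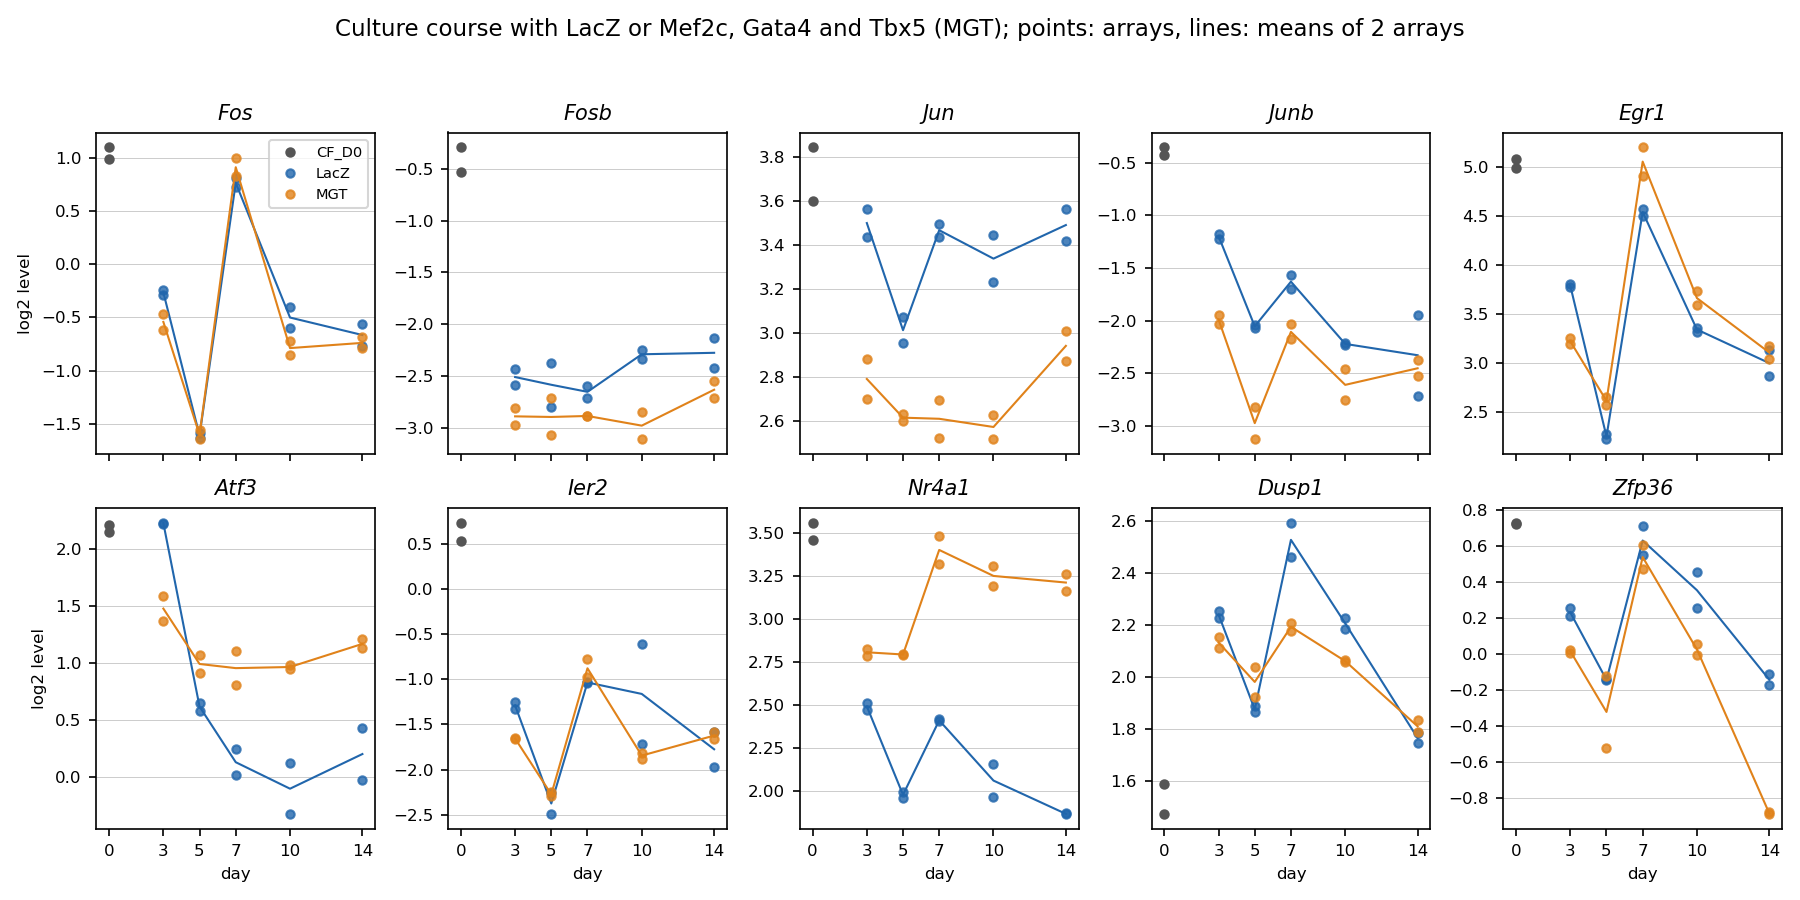
Level of each member over the days of culture, as log2 signal relative to the array's 75th percentile, each panel with a scale of its own; points are arrays (grey for CF_D0 on day 0, blue for LacZ, orange for MGT) and lines join the means of 2 arrays. Fos, Egr1 and Ier2 are lowest on day 5 and high again on day 7 in both arms, and on each day Nr4a1 is higher and Jun lower in MGT than in LacZ.

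Between day 3 and day 10 of the LacZ arm limma called 0 members in the fit of all groups (2 at an unadjusted p under 0.05, against 7.8% of all genes called), and Atf3 (-2.32) and Junb (-1.02) without iPSC2CM_D29 (12.2%). In that arm Atf3 was at 2.22 and 2.23 on day 3 and at -0.33 and 0.12 on day 10. Days 3, 10 and 14 of this arm lay on different slides, so slide and day cannot be told apart. From day 10 to day 14 limma called 0 members in either fit (2 and 3 at an unadjusted p under 0.05, with 1.66% and 3.99% of all genes called).

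The comparison of MGT with LacZ on the same day asks what the 3 cardiac factors add to culture and virus alone. In the fit of all 17 groups limma called 0 of 10 members on any of the 5 days, with 0, 0, 1, 1 and 2 members at an unadjusted p under 0.05, while 5.05%, 8.29%, 8.77%, 8.61% and 13% of all genes were called on days 3, 5, 7, 10 and 14. Without iPSC2CM_D29, 0 were called on days 3, 5 and 7 (6, 4 and 5 at an unadjusted p under 0.05, with 7.77%, 10.9% and 11.7% of all genes called), 2 on day 10 (11.2%) and 1 on day 14 (16.2%), all higher in MGT cells.

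Nr4a1 was above its LacZ control on every day. Its levels were 2.83 and 2.79 in MGT cells and 2.51 and 2.47 in LacZ cells on day 3, 2.79 and 2.79 against 1.99 and 1.96 on day 5, and 3.49 and 3.32 against 2.42 and 2.40 on day 7. On day 10 they were 3.31 and 3.19 against 2.16 and 1.96, and on day 14 they were 3.26 and 3.16 against 1.86 and 1.87. The arms did not overlap on any day, and the gap widened from 0.32 to 0.82, 0.99, 1.19 and 1.35 log2 units. Without iPSC2CM_D29 the day 10 difference of 1.19 ± 0.11 and the day 14 difference of 1.35 ± 0.11 were called (limma, adjusted p = 8.6e-08 and 1.6e-08). With day 10 fitted within its slide, Nr4a1 and Atf3 were both called (adjusted p = 0.00084 and 0.011); on day 14 the arms lay on different slides.

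Atf3 changed sides. On day 3 it was lower in MGT cells, at 1.59 and 1.36 against 2.22 and 2.23, and on day 10 it was higher, at 0.98 and 0.95 against -0.33 and 0.12. The differences over the 5 days were -0.75, 0.37, 0.82, 1.06 and 0.96. In MGT cells Atf3 itself lay between 0.80 and 1.59 on all 10 arrays, while in LacZ cells it went from 2.23 to near 0. The effect of the factors on day 10 minus that on day 3 was 1.81 ± 0.31 for Atf3 without iPSC2CM_D29 (limma, adjusted p = 6e-04), the only member called for this difference of differences, against 5.18% of all genes. In the fit of all groups limma called 0 members (Atf3 1.81 ± 1.23, adjusted p = 0.78, with 1.99% of all genes called). For Nr4a1 the difference of differences was 0.88, under 2-fold (limma, adjusted p = 0.00099 without iPSC2CM_D29).

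Jun leaned the other way, at 2.70 and 2.88 in MGT cells against 3.56 and 3.44 on day 3 and at 2.70 and 2.52 against 3.44 and 3.50 on day 7. Its differences over the 5 days were -0.71, -0.40, -0.86, -0.77 and -0.55, all under 2-fold and none called. Cardiomyocyte markers, 6 in all, summed to 9.3 and 9.2 in MGT_D10 and 4.9 and 4.5 in LacZ_D10, and macrophage markers to 5.7 and 5.9 against 5.3 and 7.1. Their part in the differences of Nr4a1, Atf3 and Jun was not tested.

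Of the 33 other early response genes, 6 were lower and 1 higher in MGT cells on day 3, and 7 and 1 on day 5. The numbers were 8 and 1 on day 7, 4 and 0 on day 10, and 7 and 0 on day 14. Over all 19408 genes, 361, 672, 682, 642 and 1369 were lower on these 5 days. Those higher numbered 620, 936, 1020, 1029 and 1150. Id1, an inhibitor of bHLH factors induced by BMP signals, was lower by 2.23 ± 0.18 on day 7 and by 2.01 ± 0.18 on day 10. Of the 11 phosphatases and Sprouty genes, feedback inhibitors of MAP kinase signalling like Dusp1, Dusp10 was higher on day 10 (2.01 ± 0.49), and Spry2 (-1.25 ± 0.16) and Spry1 (-1.15 ± 0.21) were lower. Of the 7 EGR and NR4A relatives, 1 was lower on day 3 and 2 on day 14, limma called 0 on days 5, 7 and 10, and 0 were higher on any day. Without iPSC2CM_D29 the numbers lower were 1, 1, 1, 0 and 3 on days 3, 5, 7, 10 and 14.

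In iCM, 4 weeks after the factors, all 10 members were below both fresh preparations. Against neoCF all 10 were lower (19.5% of all genes, 20.6% without iPSC2CM_D29), and against neoCM all 10 were lower (20.1%, 21% without). These 2 comparisons share the iCM arrays. Fosb was at -2.96 and -2.65 in iCM, against 4.10 and 4.51 in neoCF and 5.54 and 5.59 in neoCM, so it was 138-fold lower than in neoCF and 331-fold lower than in neoCM. Fos was at 0.13 and 0.18, 65.6-fold below neoCF (-6.04 ± 0.36, limma). Atf3 was at -0.28 and -0.31, 41.3-fold below neoCF. Egr1, at 2.55 and 2.45, differed by -4.22 from neoCF and by -3.38 from neoCM, and Nr4a1, at 2.91 and 2.87, by -3.98 and -3.65. The smallest falls against neoCF and neoCM were those of Dusp1, at 2.05 and 2.07 (-2.18 and -1.99), and, against neoCM, of Zfp36 (-1.92). All 10 were still called in each of these comparisons when any single array of the groups compared was left out. The iCM arrays shared a slide with neoCM replicate 2, and within that slide all 10 were called as well, with neoCM then a single array whose spread is assumed to be that of iCM.

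Against the cultured CF_D0 cells, 6 members were lower in iCM (22.2% of all genes), and the same 6 without iPSC2CM_D29 (23.4%): Ier2 (-3.19), Egr1 (-2.54), Atf3 (-2.46), Fosb (-2.39), Junb (-1.86) and Zfp36 (-1.79). The call of Atf3 was lost without any single array of iCM or CF_D0 (adjusted p 0.065 to 0.071), and that of Fosb without iCM replicate 1 (-2.24, adjusted p = 0.074) or CF_D0 replicate 2 (-2.28, adjusted p = 0.07), which left 4 or 5. Dusp1 (0.53), Jun (-0.27), Nr4a1 (-0.62) and Fos (-0.89) were not called. Against LacZ_D14 limma called 0 members (3 at an unadjusted p under 0.05), where 28.1% of all genes were called, and without iPSC2CM_D29 it called Nr4a1 alone (1.02 higher in iCM, 31% of all genes). Without iCM replicate 2 it called 1 member. The comparisons of iCM with neoCF, CF_D0 and LacZ_D14 join different slides, so there slide and group cannot be told apart.

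The wider lists separated iCM from the fresh cells unevenly. Over all 19408 genes tested 3453 were higher and 3780 lower against neoCF, and 3667 higher and 3906 lower against neoCM. Of 7 EGR and NR4A relatives 5 were lower than in neoCF and 4 lower than in neoCM, with 0 higher in either; Nr4a2 was lower by 3.80 ± 0.21 and by 4.92 ± 0.21. Of 33 other early response genes 15 were lower and 1 higher against neoCF, but 2 lower and 11 higher against neoCM, where Sgk1 was higher by 3.21 ± 0.19. Of 9 AP-1 partners 6 were higher and 2 lower against neoCM, with Jdp2 higher by 2.25 ± 0.12; the difference of Jund was -2.25 ± 0.45. Hspa1a was lower than in neoCF by 8.50 ± 1.22.

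Markers of other cells differed between iCM and the fresh cells. The 8 macrophage markers summed to 6.7 and 6.7 in iCM, against 6.7 and 6.2 in neoCF and 2.2 and 2.1 in neoCM, and 8 of 8 were higher in iCM than in neoCM. The 6 neutrophil markers summed to 1.1 and 1.0, against 6.7 and 6.1 in neoCF and 4.5 and 4.2 in neoCM. In each comparison 5 of 6 were lower and 1 was higher, and 3 of 6 were well above background in iCM. Of 6 endothelial markers 5 were lower than in neoCF and 4 lower than in neoCM, and of 4 proliferation markers 4 and 3 were lower. All 6 cardiomyocyte markers were higher in iCM than in neoCF, and 4 of 6 were lower than in neoCM. The part of these cells in the differences of the members was not tested.

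The iPSC-derived cardiomyocytes also had low early gene levels compared with neoCM. In iPSC1CM_D13 9 of 10 members were lower (18.2% of all genes), all but Ier2, which was called without iPSC2CM_D29 (-1.06, with 19.4% of all genes lower). Fosb, at -1.87 and -2.30, was 202-fold below neoCM, and Fos, at -0.79 and -1.19, was 120-fold below. Egr1 was at 1.27 and 1.01, against 5.92 and 5.83 in neoCM (-4.74). Atf3 was at 0.00 and -0.50, against 3.78 and 3.89 (-4.09).

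In iPSC2CM_D9 9 members were lower too (20.5%, 21.5% without iPSC2CM_D29), again all but Ier2, which was at -0.27 and -0.01 against 0.10 and 0.49 in neoCM (-0.43). Fosb was 188-fold lower. Egr1 was at -0.17 and -0.69, its lowest level in any group, 79.1-fold below neoCM. Junb, at -3.95 and -3.37, was also at its lowest here (-4.00), as was Dusp1 at 0.24 and -0.09 (-3.98). Atf3, at 1.53 and 1.44, lost its call without any single array of iPSC2CM_D9 or neoCM (adjusted p 0.074 to 0.087), which left 8. Between the lines, iPSC1CM_D13 was above iPSC2CM_D9 for Dusp1 (1.18, limma, adjusted p = 4e-07), the 1 member called against 21.3% of all genes. Without iPSC2CM_D29, Egr1 (1.57) and Atf3 (-1.74) were called as well (23.9%). Line and day of differentiation differ together there and cannot be told apart. Of 9 ATF4 stress response genes 7 were higher and 1 lower in iPSC1CM_D13 than in neoCM, and 6 higher and 1 lower in iPSC2CM_D9, with Trib3 higher by 6.86 ± 0.44 and Chac1 by 6.45 ± 0.13 in iPSC1CM_D13. Over all 19408 genes tested 3605 were higher and 3539 lower in iPSC1CM_D13, and 4024 higher and 3982 lower in iPSC2CM_D9. The 6 cardiomyocyte markers were all well above background in each of these groups.

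The cell markers separated these cells from neoCM too. Of the 6 cardiomyocyte markers 6 were lower in iPSC1CM_D13, with sums of 8.9 and 8.8 against 10.2 and 10.4 in neoCM, and 1 was lower in iPSC2CM_D9, at 9.9 and 10.3. Of 8 macrophage markers 7 and 5 were lower in these groups, of 6 neutrophil markers 5 and 6, and of 4 erythroid markers 4 and 4. Neutrophil markers summed to -3.3 and -3.3 in iPSC1CM_D13 and to -3.2 and -2.8 in iPSC2CM_D9, against 4.5 and 4.2 in neoCM. Of 7 fibroblast markers 6 were lower in iPSC2CM_D9, with sums of 5.0 and 4.7 against 9.9 and 9.8, while 2 were lower and 1 higher in iPSC1CM_D13. Their part in the low levels of the members was not tested. No slide held both neoCM and an iPSC group, so for these comparisons the slide cannot be told apart from the group.

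The iPSC2CM_D29 arrays gave 2 different pictures of these genes. Between replicate 1 and replicate 2, Atf3 was at 0.12 and 5.31, Fosb at -3.21 and 1.64, and Egr1 at 2.17 and 6.54. Replicate 2 was 36.6-fold higher for Atf3, 28.8-fold for Fosb, 20.6-fold for Egr1 and 9.55-fold for Nr4a1 (1.67 and 4.93). Jun (2.58), Ier2 (2.53), Junb (2.48) and Fos (2.08) were higher by these log2 differences. Zfp36, at -0.87 and -0.71, and Dusp1, at 1.24 and 0.94, were nearly level. So 8 of 10 members were at least 2-fold higher in replicate 2, against 20% of all genes, with no replicate behind the difference and therefore no test.

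The Egr1 level of replicate 2, at 6.54, lay between those of the neoCF arrays. Other early genes separated the arrays as well. Of 7 EGR and NR4A relatives 6 were at least 2-fold higher in replicate 2, as were 6 of 9 AP-1 partners, 7 of 9 ATF4 stress response genes and 15 of 33 other early response genes. In contrast, of 11 genes of the tristetraprolin family and its targets 1 was at least 2-fold higher and 5 were at least 2-fold lower in replicate 2, with the chemokine Ccl2 at 3.72 and -3.0. Among those 5, Il1b (-5.92 and -7.32) and Tnf (-6.20 and -7.42) were dim on both arrays. Over all genes 8214 differed by at least 2-fold, 3880 of them higher in replicate 2. Among listed genes higher in replicate 2, Dusp2, an inducible phosphatase, was at -0.82 and 7.29, Arc at -1.30 and 5.44, Csrnp1 at 1.01 and 5.60, and Hspa1a at -3.43 and 4.00. The cell markers differed too: cardiomyocyte markers summed to 8.1 and 9.7, fibroblast markers to 8.3 and 3.6, and proliferation markers to 5.1 and -0.7. Whether the labels, the cells or their handling differed between these arrays was not tested.

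**Figure D4:**
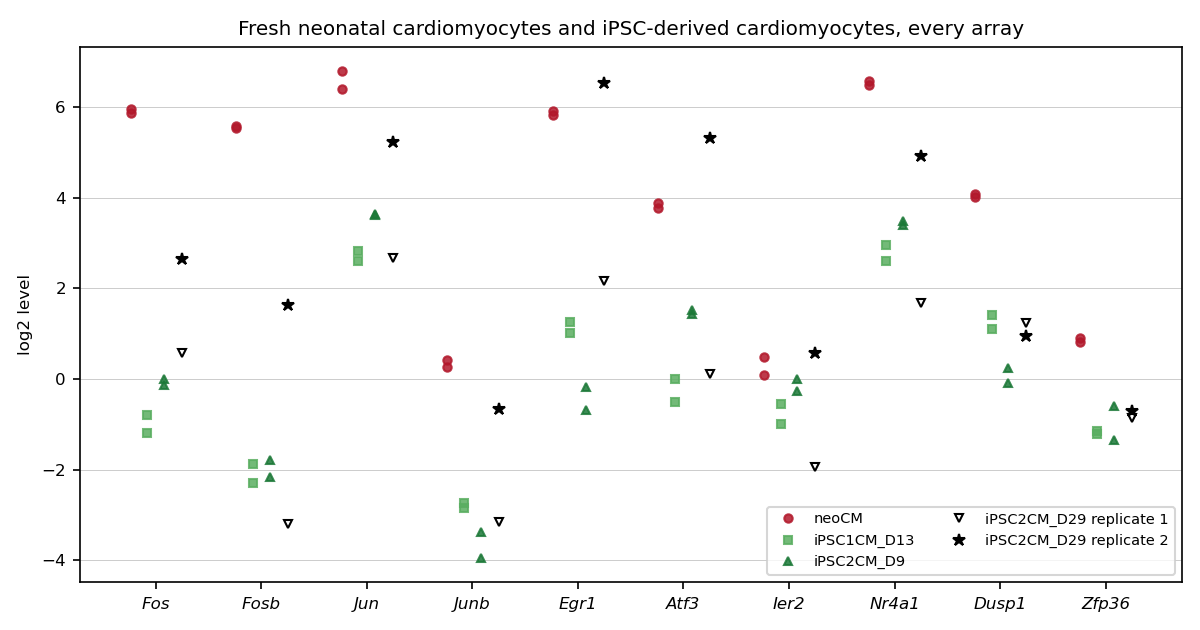
Levels of the 10 members on the arrays of neoCM and the iPSC-derived groups, as log2 signal relative to the array's 75th percentile, with each replicate as its own point. The 2 iPSC2CM_D29 points are far apart for 8 genes and close together for Dusp1 and Zfp36.

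With both arrays in the group, iPSC2CM_D29 had 7 members lower than neoCM (17.6% of all genes), all but Egr1, Atf3 and Ier2. When only the iPSC2CM_D29 and neoCM arrays were fitted 1 was called, and the calls of Fos (adjusted p = 0.077), Fosb (0.13), Jun (0.2), Nr4a1 (0.2), Junb (0.23) and Zfp36 (0.069) were lost. In iPSC2CM_D29 replicate 1 every member lay below both neoCM arrays. In replicate 2 Atf3 (5.31), Egr1 (6.54) and Ier2 (0.58) lay above both, so their direction against neoCM depends on the array kept. Against iPSC2CM_D9, 4 members were higher (14.8%): Egr1 (4.78), Junb (1.75), Fos (1.68) and Dusp1 (1.01). Fitted on these 4 arrays or within the slide none of the 4 was called, with adjusted p of 0.34, 0.52, 0.48 and 0.41 on these arrays in that order and 0.075, 0.21, 0.16 and 0.053 within the slide. Without iPSC2CM_D29 replicate 1 there were 7 called, all higher, Dusp1 not among them (0.86, under 2-fold). Without replicate 2 there were 6 called, 2 of them higher, namely Egr1 and Dusp1, and 4 lower. In replicate 1 Fosb, Jun, Atf3, Ier2 and Nr4a1 lay below both iPSC2CM_D9 arrays, and in replicate 2 above both, so the direction for these 5 depends on the array kept. Fos (0.64, under 2-fold) and Junb (0.51, adjusted p = 0.14) were not called in that case. Leaving out iPSC2CM_D9 replicate 2 lost Dusp1 (0.85, under 2-fold), and leaving out iPSC2CM_D9 replicate 1 lost Junb (1.46, adjusted p = 0.054).

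The members moved together over the 17 group means to different degrees. Pearson's r across groups was 0.961 for Fosb and Jun, 0.944 for Fos and Jun and 0.939 for Fos and Fosb, but 0.508 for Egr1 and Ier2 and 0.352 for Ier2 and Dusp1, with a median of 0.755 over all pairs of members. These points share the 2 fresh groups, which are high for most members, and the uneven iPSC2CM_D29 group, so r is a description. The non-member genes whose group means were most like the average of the members were Ppp1r15a (r = 0.946), Slitrk6 (0.932), Gzma (0.929), Stard9 (0.928), Dusp8 (0.928) and Slurp1 (0.928). By single member the closest were Nr4a2 for Fosb (0.979), Slurp1 for Jun (0.967) and Fos (0.951), Gpr20 for Nr4a1 (0.944), Ppp1r15a for Junb (0.942), Sobp for Dusp1 (0.933), Egr2 for Egr1 (0.917), Ltf for Atf3 (0.913), Stfa2 for Ier2 (0.898) and Rassf9 for Zfp36 (0.890), each over 17 group means. The lowest group mean was 3.01 for Ppp1r15a and -0.48 for Stard9, but -7.13 for Slitrk6, -6.65 for Slurp1 and -8.58 for Rassf9. A gene needed to be well above background in only 1 group to be kept. For such dim genes r may therefore largely set the fresh groups against dim signal.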

How the data were processed

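Cy3-labelled RNA of 34 samples was measured on arrays of a single colour. Per the file headers, the software was Agilent Feature Extraction, version 10.7.3.1, and the deposited intensity of each spot is that software's processed signal, whose 75th percentile ran from 729 to 3778 over the arrays. The authors' deposited table of log2 values, for which the submitters' processing notes name limma, was used as an alternative; its scale is log2, its column medians lie between 7.49 and 7.52, and its centring is not given in the sources used here. Groups came from the sample labels, 2 arrays each.

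From the intensity files, control and outlier spots were left out, and log2 signal was averaged over the spots of a probe. The array's 75th percentile over probes was then subtracted. Of 55681 probes, 43371 were kept, being well above background (on a share of at least 0.5 of its spots) on both arrays of at least 1 group. By name, 26056 probes took their gene from an accession, 3200 from a current symbol and 930 from an outdated one, and 25495 could not be matched to a gene. A gene with several probes was represented by the one with the highest mean, which gave 19408 genes. Group means were fitted with limma 3.58.1 in R 4.3.3 (lmFit, eBayes, 17 residual degrees of freedom), with Benjamini-Hochberg adjustment over all genes; ± is the standard error of a difference. The computation was tested on simulated data. Arrays have no read depth, so the precision rests on 2 arrays a group. Alternatives changed the normalization, the source of values, the filter on dim probes, the probe rule, blocks for slide or replicate, array weights, the groups fitted and single arrays left out.

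The members and all gene lists were chosen with earlier results of these data known. Genes named beyond the members were the 10 most like the members' average over the 17 group means, the closest gene to each member, and from each list up to 2 called genes with the largest rise and fall; some were passed over because the lower group was not well above background. Figures were drawn with matplotlib 3.10.9 in Python 3.11.15.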

Additional observations from a re-analysis of the deposited data

Results flagged for a closer look

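The effect of the 3 factors on Atf3 differed between day 3 and day 10 when the iPSC2CM_D29 group was left out: the difference between MGT and LacZ cells was -0.75 on day 3 and 1.06 on day 10, a change of 1.81 ± 0.31 (limma, adjusted p = 6e-04, 2 arrays in each of 4 groups). The 2 MGT arrays were below the 2 LacZ arrays on day 3 and above them on day 10. In the fit of all 17 groups the same change had a standard error of 1.23 and did not pass (limma, adjusted p = 0.78).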

How the results depend on the processing

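No member difference called in the fit of all 17 groups or without iPSC2CM_D29 changed sign under any setting run. Some differences of iPSC2CM_D29 that were uncalled in the fit of all groups did change direction with the iPSC2CM_D29 array kept. They were those of Fosb, Jun, Atf3, Ier2 and Nr4a1 against iPSC2CM_D9, and those of Atf3, Egr1 and Ier2 against neoCM. The uncalled differences between neoCM and neoCF changed sign without neoCF replicate 2 for Jun (0.032) and Junb (0.018), and were -0.49 and -0.83 without neoCF replicate 1. For the named member differences, calls were gained or kept in most settings and 60 calls were lost, 38 of them when a single array was left out and 22 in other settings. The unlike iPSC2CM_D29 arrays enter every gene's spread, and leaving that group out gained the call of 31 and lost that of 0. Counts below are given only where they moved by over 1.5 times, the cause was not tested beyond the construction of each setting, and the number of arrays limits all of them.

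Without the iPSC2CM_D29 group, members called rose to 4 for neoCM vs neoCF, 5 for LacZ_D3 vs CF_D0, 2 for LacZ_D10 vs LacZ_D3, 2 for MGT_D10 vs LacZ_D10, 1 for MGT_D14 vs LacZ_D14, 1 for iCM vs LacZ_D14, 3 for iPSC1CM_D13 vs iPSC2CM_D9 and 1 for the effect of the factors on day 10 minus day 3. For the steps of the course it gave 4 (LacZ day 5 vs 3), 3 (LacZ day 7 vs 5), 2 (LacZ day 10 vs 7), 1 (MGT day 5 vs 3), 3 (MGT day 7 vs 5) and 2 (MGT day 10 vs 7). Array weights and the fit of only the groups compared gave these same counts, except that the latter gave 1 for MGT_D10 vs LacZ_D10 and did not move the day 10 vs 7 steps. For iPSC2CM_D29 vs neoCM the fit of only the groups compared called 1 member and 507 genes, and array weights 1578 genes. For iPSC2CM_D29 vs iPSC2CM_D9 array weights called 1 member and 545 genes, and only the groups compared 0 and 0. A fit of only the arrays on their slide, with no slide term, called 0 and 1867. Fits of only the arrays on the slides concerned gave 2 members for MGT_D10 vs LacZ_D10 and 1 for the day 10 minus day 3 effect. They gave 4 for LacZ day 5 vs 3, 1 for MGT day 5 vs 3 and 2 for both day 10 vs 7 steps.

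The slide as a random block called 1 member for LacZ_D10 vs LacZ_D3, 1 for MGT_D14 vs LacZ_D14 and 2 for both day 7 vs 5 steps. Both normexp with quantile normalization and the authors' log2 values called 1 for MGT_D14 vs LacZ_D14, 1 for iCM vs LacZ_D14, 2 for both day 7 vs 5 steps and 1 for MGT day 10 vs 7. Quantile normalization called 1 for MGT day 10 vs 7, and 2 for iPSC1CM_D13 vs iPSC2CM_D9, as did the authors' values. The call of Junb in CF_D0 vs neoCF was lost with quantile normalization (-1.17, adjusted p = 0.094) and the authors' values (-1.22, 0.074). It was also lost when only the arrays of the shared slide were fitted (-1.13, 0.061). The estimate there is that of the main fit, and only its error differs.

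Over all genes, normexp with quantile normalization called 1943 for LacZ_D3 vs CF_D0, 937 for LacZ_D10 vs LacZ_D3, 1492 for MGT_D14 vs LacZ_D14 and 3415 for iCM vs LacZ_D14. With no filter on dim probes 2508 were called for LacZ_D10 vs LacZ_D3 and 4705 for MGT_D14 vs LacZ_D14. LacZ_D10 vs LacZ_D3 gave 2286 with array weights and 2371 without iPSC2CM_D29. LacZ_D14 vs LacZ_D10 gave 484 with quantile normalization, 548 with the slide as a random block, 111 with array weights, 774 without iPSC2CM_D29 and 0 with only the groups compared. MGT_D3 vs LacZ_D3 gave 1798, 1508, 1599 and 1570 with array weights, without iPSC2CM_D29, with only the groups compared and with only the arrays on the slides concerned. MGT_D10 vs MGT_D3 gave 2098, 1784 and 1824 with the first 3 of these. The day 10 minus day 3 effect gave 1218, 1005, 1046 and 1196 with all 4. iPSC1CM_D13 vs iPSC2CM_D9 gave 1640 with only the arrays on their slide.

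With a single array left out, members called ranged from 1 to 2 for neoCM vs neoCF, 6 to 9 for CF_D0 vs neoCF, 1 to 2 for LacZ_D3 vs CF_D0, 3 to 3 for LacZ_D14 vs CF_D0, 4 to 5 for iCM vs CF_D0, 0 to 1 for iCM vs LacZ_D14, 7 to 10 for iPSC2CM_D29 vs neoCM, 3 to 7 for iPSC2CM_D29 vs iPSC2CM_D9, 0 to 0 for LacZ day 5 vs 3 and 1 to 2 for MGT day 7 vs 5. Genes called ranged from 889 to 1275 for LacZ_D10 vs LacZ_D3, 137 to 624 for LacZ_D14 vs LacZ_D10, 1758 to 2986 for MGT_D14 vs LacZ_D14, 756 to 853 for MGT_D10 vs MGT_D3, 3778 to 6577 for iPSC2CM_D29 vs iPSC2CM_D9 and 239 to 456 for the day 10 minus day 3 effect.

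Same-numbered arrays did not deviate together: over 136 pairs of groups the correlation of their deviations ran from -0.13 to 0.17 with a median of 0.0014, and 8 pairs were over 0.1. With the replicate number as a block the counts of members called were 9 for CF_D0 vs neoCF, 2 for neoCM vs neoCF and 10 for iCM vs neoCF, and no count of members moved in any comparison.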
